A study of Rattus norvegicus with 16 samples.

Results

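The levels of 8 genes of cholesterol metabolism were followed through injury of the rat rotator cuff: Hmgcs1, Idi1, Fdps, Fdft1, Sqle and Cyp51, which encode enzymes of cholesterol synthesis, and Srebf2 and Insig1, which encode its transcriptional control. They were taken by symbol from the deposited table of 17147 genes, and all 8 were among the 11658 genes that passed the filter for low counts. The set was put together as genes of cholesterol synthesis and uptake, but none of the 8 is a lipoprotein receptor, so receptor genes are described here from a separate list. The libraries came from supraspinatus muscle of Sprague Dawley rats and form 4 groups of 4. Rats of the 0-day group were not operated on. The other groups were sampled 10, 30 and 60 days after an injury to both shoulders that joined a full-thickness supraspinatus tear with suprascapular neurectomy, so that the muscle lost its tendon attachment and its nerve together and the effect of each cannot be told apart. Age and sex are not given in the sources used here, nor is it stated which libraries share a rat, so p-values measure only the spread between these samples.

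Cholesterol is built from acetyl-CoA. The mevalonate arm of the pathway makes isoprene units and joins them to farnesyl diphosphate, which also feeds ubiquinone, dolichol and protein prenylation. Squalene synthase commits farnesyl diphosphate to sterols, and the sterol arm closes and trims the rings. When sterols in the endoplasmic reticulum are low, SCAP carries the transcription factor SREBP-2, the product of Srebf2, to the Golgi for cleavage, and SREBP-2 then raises the genes of the pathway. When sterols are plentiful, INSIG proteins hold SCAP back.

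Promoter sequence was available for 6 members in the RefSeq table (assembly GRCr8, 250 bases before to 50 bases after the annotated start). Those of Hmgcs1, Fdps and Idi1 are shown because these enzymes of the mevalonate arm took different courses, Idi1 being raised early and Hmgcs1 and Fdps lower at every time with TMM factors. Each is written 5′ to 3′ on the gene's strand, in lower case, with capitals for CCAAT or its complement ATTGG, the box bound by the factor NF-Y that works beside SREBP in many sterol genes. They lie at chr2:53382054-53382353 on the plus strand (Hmgcs1), chr2:176804767-176805066 on the minus strand (Fdps) and chr17:66547475-66547774 on the minus strand (Idi1).
Hmgcs1: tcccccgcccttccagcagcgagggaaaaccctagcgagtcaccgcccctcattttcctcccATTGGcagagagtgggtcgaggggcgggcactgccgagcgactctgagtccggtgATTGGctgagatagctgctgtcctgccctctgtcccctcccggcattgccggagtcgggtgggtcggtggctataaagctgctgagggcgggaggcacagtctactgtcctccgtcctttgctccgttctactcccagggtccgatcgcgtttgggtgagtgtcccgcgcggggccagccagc
Fdps: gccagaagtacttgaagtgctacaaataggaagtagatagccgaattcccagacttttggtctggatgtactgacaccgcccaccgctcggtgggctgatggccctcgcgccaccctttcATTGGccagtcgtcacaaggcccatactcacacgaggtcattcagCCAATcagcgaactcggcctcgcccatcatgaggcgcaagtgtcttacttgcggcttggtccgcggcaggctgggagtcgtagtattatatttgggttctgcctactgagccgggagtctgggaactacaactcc
Idi1: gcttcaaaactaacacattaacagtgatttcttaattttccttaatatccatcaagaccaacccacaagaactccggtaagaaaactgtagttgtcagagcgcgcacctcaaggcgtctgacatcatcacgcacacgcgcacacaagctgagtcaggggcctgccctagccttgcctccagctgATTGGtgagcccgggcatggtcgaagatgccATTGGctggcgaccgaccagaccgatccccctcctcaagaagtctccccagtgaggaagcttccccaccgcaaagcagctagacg
All 3 promoters hold the box in 2 places. It starts 188 and 133 bases before the start in Hmgcs1, 130 and 85 bases before it in Fdps, and 66 and 35 bases before it in Idi1. A search of both strands found CCAAT in 5 of the 6 member promoters, all but that of Cyp51, in 27 of 42 promoters of the other listed pathway genes and in 36.9% of the 9159 promoters of tested genes. The GC box GGGCGG was in 5 of 6, against 61.5% of those promoters. The sterol regulatory element was searched as TCACNCCAC and was in none of the 6 and in 1.14% of those promoters. No CCAAT match in a member overlapped a GC box match. A match is only a run of letters, and a missing match says only that these letters are not in this window. Promoters of Sqle and Fdft1 were not used here.

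Levels are given as fragments of a gene per M (mega) fragments, CPM, scaled with TMM factors, which assume that most genes do not change between libraries. Differences are log2 fold changes with their standard error (SE) from edgeR's quasi-likelihood test over all 16 libraries, and a gene was called changed at a Benjamini-Hochberg adjusted p under 0.05. The libraries held 17.2 to 39.9 M fragments, those at 60 days fewer (17.2 to 22.4 M) than any other. TMM factors were 0.750 to 0.775 at 0 days and 0.969 to 1.24 after injury. Scaling by library totals alone therefore raised the median log2 fold change of all tested genes against 0 days by 0.66 at 10 days, 0.49 at 30 days and 0.41 at 60 days, and signs that turn under it are given beside the values of the 8 genes. In whole muscle, fewer cells of a type and less RNA per cell cannot be told apart.

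At 10 days 5 of the 8 genes differed from 0 days, 2 higher and 3 lower, where 62.7% of all tested genes were called (33.3% higher and 29.4% lower). At 30 days 6 of 8 differed, 1 higher and 5 lower, against 64.6% of all tested genes (33.7% higher, 30.9% lower). At 60 days 4 of 8 differed, all lower, against 59.0% (29.9% higher, 29.1% lower). The share of members called was thus near the background at each time. The groups did not overlap for 5, 6 and 4 members in the same order, against 59.0%, 60.2% and 50.0% of all tested genes. The median log2 fold change of the 8 was -0.003, -0.37 and -0.22, beside 0.06, 0.05 and 0.04 over all tested genes. By library totals the counts became 6 higher and 1 lower at 10 days, 4 and 1 at 30 days, and 3 and 3 at 60 days. Under that scaling 80.2%, 75.1% and 69.9% of all tested genes were called at these times. Of those called genes 87.4%, 84.1% and 82.7% were higher. The 8 did not take 1 common course: with TMM factors 3 were lower at every time (by library totals only Fdft1 kept this), Idi1 and Srebf2 were raised early, Cyp51 was lowered late, Insig1 was lowered at 30 days and Sqle passed no test.

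**Figure D1:**
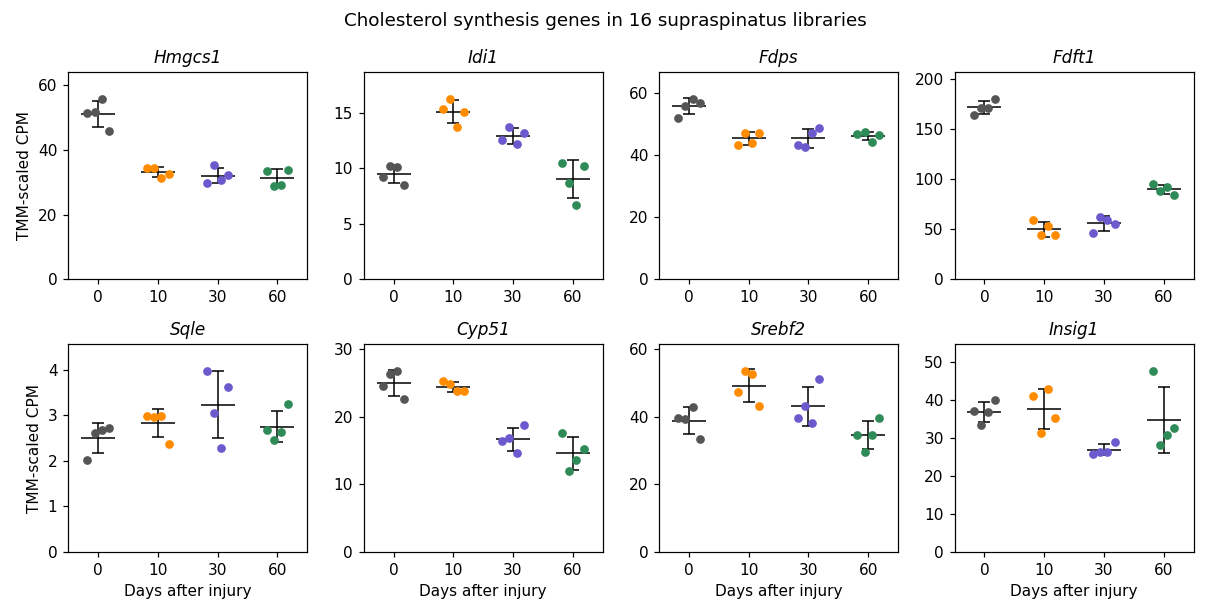
Level of each of the 8 genes in every library (points, TMM-scaled CPM, each panel with its own axis from 0) at 0, 10, 30 and 60 days after injury, with the group mean (long bar) and SD (error bar, n = 4). Fdft1 falls from 164 to 180 CPM at 0 days to 43.9 to 58.9 at 10 days, while Idi1 rises from 8.52 to 10.2 CPM to 13.7 to 16.2.

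Hmgcs1 encodes the cytosolic HMG-CoA synthase, an early enzyme of the mevalonate arm. Its level was 51.4, 51.7, 55.8 and 45.8 CPM in replicates 1 to 4 at 0 days, and 34.4, 34.3, 31.5 and 32.5 CPM at 10 days. It was 29.8, 35.3, 30.9 and 32.4 CPM at 30 days and 33.6, 28.8, 29.3 and 33.9 CPM at 60 days. All 12 libraries after injury lay below all 4 at 0 days, and the 3 later groups overlapped each other. Hmgcs1 fell at 10 days (log2 fold change -0.63 ± 0.079 SE, adjusted p 3.35e-06), which by library totals became a difference of 0.03. It was also lower at 30 days (-0.67 ± 0.079, adjusted p 1.94e-06) and at 60 days (-0.70 ± 0.080, adjusted p 1.92e-06), and both kept their sign by library totals (-0.18 with adjusted p 0.0593, and -0.30 with adjusted p 0.00485). From 10 to 60 days no difference was found with TMM factors, with a 95% interval of -0.25 to 0.09 on the log2 scale. By library totals Hmgcs1 was called lower at 60 than at 10 days (-0.33, adjusted p 0.00243) and at 30 than at 10 days (-0.21, adjusted p 0.0440).

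Idi1 encodes isopentenyl-diphosphate isomerase, which interconverts the 5-carbon building blocks. It was at 9.16, 10.2, 10.1 and 8.52 CPM at 0 days, at 15.3, 16.2, 13.7 and 15.1 CPM at 10 days, and at 12.5, 13.7, 12.2 and 13.2 CPM at 30 days. At 60 days it was at 10.5, 8.64, 6.72 and 10.2 CPM, which overlapped the 0-day libraries, while the 10-day and 30-day libraries lay above all of them. Idi1 rose 1.59-fold at 10 days (log2 fold change 0.67 ± 0.12, adjusted p 0.000117) and 1.36-fold at 30 days (0.44 ± 0.12, adjusted p 0.00383), higher in 4 of 4 libraries each time and in the same direction by library totals. At 60 days the difference was -0.07 ± 0.12 (adjusted p 0.620), and by library totals it was 0.34 (adjusted p 0.0267). Idi1 fell from 30 to 60 days (-0.51 ± 0.12, adjusted p 0.00590). In the annotation Idi1 overlaps Wdr37 and has 1 annotated pseudogene copy. Since the sources used here do not say whether counting used strand, reads of Wdr37 and Idi1 may not be separated. Wdr37 itself had a log2 fold change of -0.39 at 10 days (adjusted p 0.000706) and of 0.11 at 30 days (adjusted p 0.256). Other members overlap non-coding genes: Hmgcs1, Fdft1 and Insig1 a long non-coding RNA gene each, Fdps a small nuclear RNA gene and Srebf2 a microRNA gene. Whether reads are shared there was not tested.

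Fdps encodes farnesyl diphosphate synthase, at the branch point between sterols and other isoprenoids. It was at 52.1, 56.0, 58.2 and 56.8 CPM at 0 days, and its group means after injury were 45.4 ± 2.06 (SD, n = 4), 45.5 ± 3.04 and 46.2 ± 1.40 CPM at 10, 30 and 60 days. The highest library after injury, at 48.9 CPM, was below the lowest at 0 days. Fdps fell by a small and constant amount in these values (log2 fold changes -0.29 ± 0.062, -0.29 ± 0.062 and -0.27 ± 0.063, with adjusted p 0.000579, 0.000625 and 0.00152), but by library totals its differences were positive (0.36, 0.20 and 0.14, the last with adjusted p 0.0759), and by upper-quartile factors the 60-day call was lost (-0.13, adjusted p 0.0726). Its direction therefore depends on the scaling. The annotation holds 5 Fdps pseudogenes, so reads shared with them make its level uncertain.

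Among the 8 the change was largest in Fdft1, which encodes squalene synthase, the first enzyme committed to sterols. It was at 164, 171, 172 and 180 CPM at 0 days, at 58.9, 44.0, 53.9 and 43.9 CPM at 10 days, and at 46.3, 62.9, 59.4 and 55.0 CPM at 30 days. At 60 days it was at 95.0, 88.2, 92.2 and 84.8 CPM. The 10-day and 30-day libraries overlapped, the 60-day libraries lay above them, and all lay below the 0-day libraries. Fdft1 was 3.42-fold lower at 10 days (log2 fold change -1.78 ± 0.10, adjusted p 8.47e-10), 3.07-fold lower at 30 days (-1.62 ± 0.10, adjusted p 2.23e-09) and 1.91-fold lower at 60 days (-0.93 ± 0.10, adjusted p 1.17e-06). It rose again between 30 and 60 days (0.69 ± 0.10, adjusted p 0.000233). Fdft1 was lower at all 3 times by library totals too (-1.12, -1.13 and -0.53), the only one of the 8 called lower at 10 and 30 days under that scaling.

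With TMM factors Hmgcs1, Fdps and Fdft1 were thus the 3 members lower at every time after injury, as were 15.6% of all tested genes. By library totals only Fdft1 was called lower at each time, Hmgcs1 being at 0.03 at 10 days and Fdps positive throughout.

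Sqle encodes squalene epoxidase, a rate-limiting enzyme of the sterol arm. Its reads were few, at 36 to 129 fragments per library. It was at 2.02 to 2.73 CPM at 0 days, 2.37 to 3.00 at 10 days, 2.28 to 3.97 at 30 days and 2.47 to 3.24 at 60 days, and every later group overlapped the 0-day group. The log2 fold changes were 0.17 (95% interval -0.21 to 0.54), 0.36 (-0.01 to 0.73) and 0.13 (-0.25 to 0.52), with adjusted p 0.424, 0.0839 and 0.543. A fall as large as that of Fdft1 at the same time lies outside each of these intervals. By library totals Sqle was called higher at all 3 times (0.83, 0.87 and 0.55), and by upper-quartile factors or without replicate 3 of the 30-day group it was called higher at 30 days (0.48 and 0.49).

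Cyp51 encodes lanosterol 14-alpha-demethylase, which acts after the rings are closed. It was at 24.5, 26.3, 26.7 and 22.6 CPM at 0 days and at 25.2, 24.8, 23.9 and 23.8 CPM at 10 days, with overlapping groups (log2 fold change -0.03, 95% interval -0.25 to 0.19, adjusted p 0.788). By library totals it was higher at 10 days (0.62, adjusted p 5.79e-05). At 30 days it was at 16.4, 16.8, 14.7 and 18.8 CPM, and at 60 days at 17.6, 11.9, 13.6 and 15.2 CPM, so that all 8 later libraries lay below all 8 earlier ones. Cyp51 fell from 10 to 30 days (-0.55 ± 0.10, adjusted p 0.000413) and stood below the 0-day level at 30 days (-0.58 ± 0.11, adjusted p 0.000140) and 60 days (-0.78 ± 0.11, adjusted p 1.38e-05). By library totals the 30-day difference from 0 days was -0.09 (adjusted p 0.483).

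Srebf2 was at 39.7, 39.2, 43.0 and 33.4 CPM at 0 days and at 47.4, 53.5, 52.8 and 43.2 CPM at 10 days, where every library lay above all those at 0 days. It was at 39.7, 43.2, 38.1 and 51.4 CPM at 30 days and at 34.7, 29.5, 34.5 and 39.6 CPM at 60 days, and both groups overlapped the 0-day group. Srebf2 rose 1.27-fold at 10 days (log2 fold change 0.34 ± 0.11, adjusted p 0.0121). The differences at 30 days (0.15 ± 0.11, adjusted p 0.242) and 60 days (-0.17 ± 0.11, adjusted p 0.208) did not pass, although by upper-quartile factors and by library totals the 30-day level was called higher (0.27 and 0.65) and by library totals the 60-day difference was 0.25 (adjusted p 0.0803). Srebf2 fell from 10 to 60 days (-0.51 ± 0.11, adjusted p 0.000797). A rise at 10 days followed by a fall by 60 days was found in Idi1 and Srebf2 and in 18.8% of all tested genes.

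Insig1 was at 37.2, 33.5, 36.9 and 39.9 CPM at 0 days and at 41.0, 31.3, 42.8 and 35.2 CPM at 10 days, with no difference called (log2 fold change 0.03, 95% interval -0.26 to 0.31, adjusted p 0.869) except by library totals (0.69, adjusted p 0.000155). At 30 days it was at 25.8, 26.3, 26.3 and 29.0 CPM, below every library at 0 and 10 days. The fall was 1.37-fold against 0 days (-0.46 ± 0.14, adjusted p 0.00751), which by library totals became 0.038, and 1.40-fold against 10 days (-0.48 ± 0.13, adjusted p 0.00744). At 60 days it was at 47.5, 28.1, 30.8 and 32.7 CPM, with 1 library above all others of the study and 3 below the 0-day group (-0.08, adjusted p 0.620), and by library totals it was called higher than at 0 days (0.32, adjusted p 0.0426). Without that highest library, replicate 1, and with TMM factors the 60-day level was called lower than at 0 days (-0.27, adjusted p 0.0289) and than at 10 days (-0.30, adjusted p 0.0167).

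**Figure D2:**
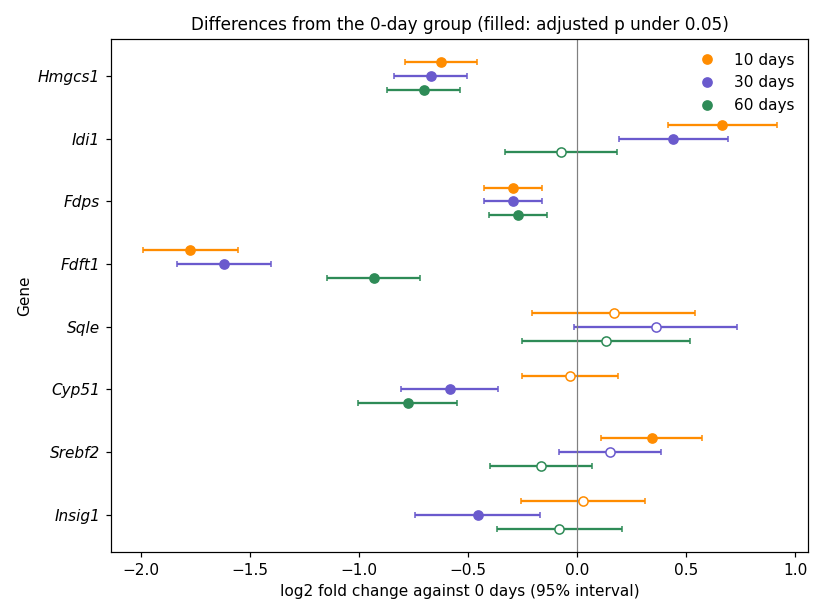
Log2 fold change of each gene at 10, 30 and 60 days against 0 days (x axis) with its 95% interval, filled where the adjusted p is under 0.05. With TMM factors, as drawn, Hmgcs1, Fdps and Fdft1 lie left of 0 at every time (by library totals Hmgcs1 at 10 days and Fdps do not), Idi1 lies right of 0 at 10 and 30 days, and all 3 intervals of Sqle include 0.

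The later times were also compared with each other. Between 10 and 30 days 2 of 8 members changed, Cyp51 and Insig1, both lower, against 47.3% of all tested genes (23.0% higher, 24.3% lower). Groups did not overlap for 3 members, with Idi1 as the third, against 43.8%. Between 30 and 60 days 3 of 8 did, against 22.6% (10.3% higher, 12.4% lower): Fdft1 rose, Idi1 fell and Srebf2 fell with an adjusted p of 0.0490 (-0.32 ± 0.11) and overlapping groups. This last call was lost in 12 of 16 fits that left out 1 library, with adjusted p up to 0.171 without replicate 4 of the 30-day group, and with RLE factors, DESeq2 and limma-voom (adjusted p 0.0649, 0.0557 and 0.0588). Groups did not overlap for the other 2 members, against 20.1%. Between 10 and 60 days 4 of 8 changed, against 61.1% (29.1% higher, 31.9% lower), with Fdft1 higher and Idi1, Cyp51 and Srebf2 lower, and the groups did not overlap for these 4, against 51.2%. A test of the 3 differences from 0 days together called 7 of 8 members, all but Sqle (adjusted p 0.281), and 84.7% of all tested genes.

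**Figure D3:**
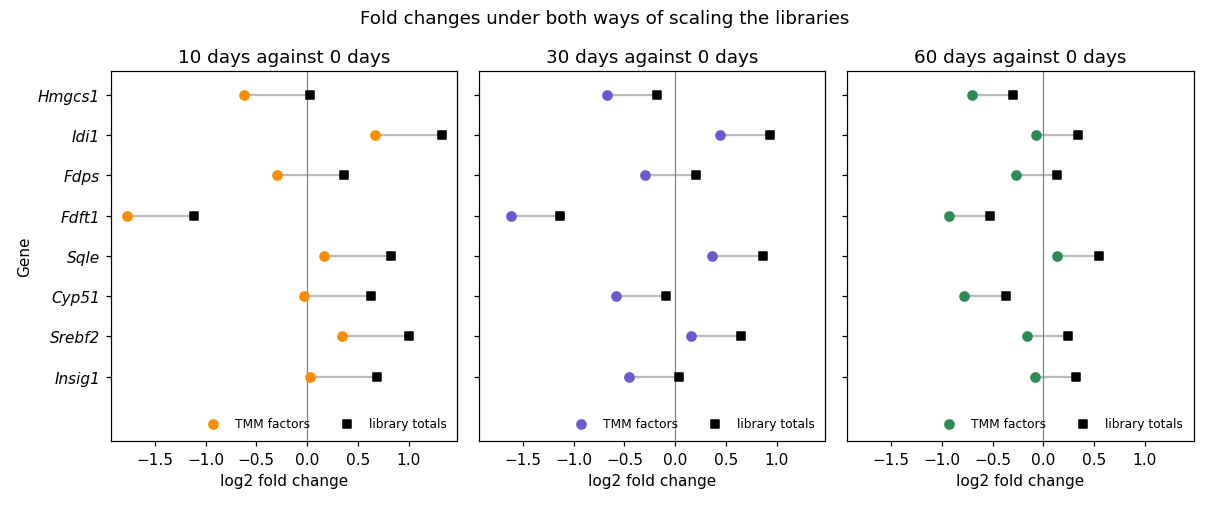
Log2 fold change of each gene against 0 days (x axis) with TMM factors (circles) and with library totals alone (squares), 1 panel per time. Every square lies to the right of its circle, and at 10 days the squares of Hmgcs1 (0.03), Fdps (0.36) and Cyp51 (0.62) lie right of 0 while their circles lie left of it.

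Of 4 further genes of the mevalonate arm, 3 fell at 10 days, none was called at 30 days and 1 fell at 60 days. By library totals 1 was higher and 1 lower at 10 days, all 4 were higher at 30 days, and 3 were higher and 0 lower at 60 days. The shares of all tested genes called under each scaling, given above, are the background for these counts. They are also the background for the lists of pathway genes and markers that follow. Pmvk, phosphomevalonate kinase, fell 1.84-fold at 10 days (-0.88 ± 0.08, adjusted p 3.80e-08) and was not called at 60 days (0.05, adjusted p 0.552), although it was called higher by library totals (0.46, adjusted p 0.000102). Mvk and Mvd, the kinase and decarboxylase on either side of it, were lower at 10 days with TMM factors (-0.42 and -0.49) and not by library totals (0.23 and 0.17).

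Of 8 further genes of the sterol arm, 4 rose and 2 fell at 10 days, 4 rose and 2 fell at 30 days, and 3 rose and 2 fell at 60 days. By library totals 7 were higher and 1 lower, 6 and 0, and 5 and 1 in the same order. Of the 10-day rises that of Ebp (0.48, adjusted p 0.0361) was lost in several fits without 1 library. Its adjusted p was 0.0939 without replicate 3 of the 0-day group and 0.0800 without replicate 3 of the 10-day group. Lss, lanosterol synthase, closes the rings directly after Sqle. It was at 5.85, 5.43, 4.73 and 5.70 CPM at 0 days and at 20.4, 31.3, 24.4 and 25.4 CPM at 10 days. This was a 4.68-fold rise (log2 fold change 2.23 ± 0.14, adjusted p 1.73e-09) that had shrunk to 2.00-fold at 30 days (1.00 ± 0.14) and was not called at 60 days (0.15, adjusted p 0.402) except by library totals (0.55, adjusted p 0.00517). Msmo1, which removes methyl groups after Cyp51, rose at all 3 times (0.75, 0.86 and 0.39), as did Dhcr7, the reductase of the last steps (0.80, 1.03 and 1.06). Sc5d, the sterol desaturase, was not called at 10 days (0.22, adjusted p 0.173, and 0.88 with a call of higher by library totals) and fell at 60 days (-1.41 ± 0.15, adjusted p 9.59e-07), also by library totals. Nsdhl was lower at all 3 times with TMM factors (-0.30, -0.27 and -0.36) and had the other sign by library totals (0.36, 0.22 and 0.051).

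**Figure D4:**
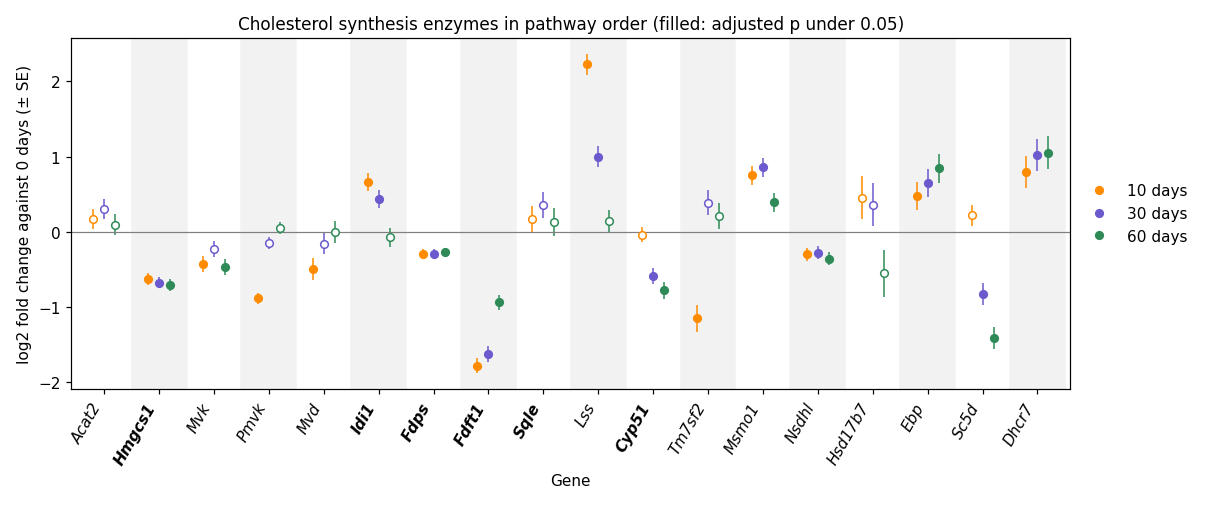
Log2 fold change (± SE) against 0 days for 18 enzymes in the order of their reactions, members in bold type, filled where the adjusted p is under 0.05. With TMM factors, as drawn, raised genes stand between lowered ones. At 10 days Idi1 (0.67) and Lss (2.23) are among the raised, and Hmgcs1 (-0.63), Fdft1 (-1.78) and Tm7sf2 (-1.15) among the lowered. By library totals Hmgcs1 was at 0.03 at 10 days. Tm7sf2 had only 25 to 42 fragments per library at 10 days.

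The non-sterol branch uses the product of Fdps. Of its 8 tested genes 1 rose and 3 fell at 10 days, 1 rose and 3 fell at 30 days, and 1 rose and 4 fell at 60 days. By library totals the balance turned, with 5 higher and 1 lower, 6 and 1, and 5 and 2. The gene that rose with TMM factors was Dhdds, a subunit of the enzyme that makes the dolichol backbone (log2 fold changes 1.25 ± 0.13, 1.68 ± 0.13 and 0.79 ± 0.13 at the 3 times).

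Among 7 further tested genes of SREBP control and sterol-regulated protein degradation, 3 rose and 1 fell at 10 days, 1 rose and 2 fell at 30 days, and 4 fell at 60 days. By library totals 6 were higher and 0 lower at 10 days, 3 and 1 at 30 days, and 2 and 3 at 60 days. Scap, the escort of SREBP-2, rose at 10 days (log2 fold change 0.73 ± 0.14, adjusted p 0.000350) as Srebf2 did and was not called at 60 days (-0.09, adjusted p 0.599), and its sign turned by library totals (0.31, adjusted p 0.0625). Rnf145, a sterol-responsive ubiquitin ligase, rose 2.80-fold at 10 days (1.48 ± 0.14, adjusted p 8.99e-08). Insig2, the partner form of Insig1, was lower at 30 and 60 days (-0.93 ± 0.16 and -0.93 ± 0.17), also by library totals (-0.44 and -0.54). Srebf1, whose product mainly drives fatty acid synthesis, was lower at 10 days (-0.93 ± 0.20, adjusted p 0.000689), a call not kept by library totals (-0.27, adjusted p 0.193), and at 60 days (-0.95 ± 0.20, adjusted p 0.000734).

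Of 9 genes of lipoprotein uptake and endosomal export 8 could be tested. Of these 4 rose and 4 fell at 10 days, 3 rose and 4 fell at 30 days, and 3 rose and 3 fell at 60 days. By library totals 5 were higher and 1 lower at 10 days, and 4 and 2 at 30 and at 60 days. Of the 10-day rises, those of Scarb1 (0.41, adjusted p 0.0458) and Npc1 (0.20, adjusted p 0.0309) were lost with RLE factors (adjusted p 0.0617 and 0.0706). Both were also lost without replicate 1 (adjusted p 0.166 and 0.0741) or replicate 3 (0.0777 and 0.145) of the 10-day group, Npc1 also without replicate 3 at 0 days (0.0783), and Scarb1 in 12 of 16 fits without 1 library. Vldlr, the receptor for very-low-density lipoprotein, was at 151 ± 9.57 CPM (SD, n = 4) at 0 days and at 57.2 ± 7.01, 64.5 ± 5.63 and 82.6 ± 11.6 CPM at 10, 30 and 60 days. It fell at all 3 times (log2 fold changes -1.40 ± 0.10, -1.23 ± 0.10 and -0.87 ± 0.10), also by library totals (-0.74, -0.73 and -0.47), and rose again from 10 to 60 days (0.53 ± 0.10, adjusted p 0.000294). Lrp1, a receptor with many ligands, rose at all 3 times (1.08, 1.22 and 1.21), and so did Mylip, a ligase that degrades lipoprotein receptors (0.75, 0.65 and 0.58). Npc1, which exports cholesterol from late endosomes, was lower at 30 and 60 days (-0.75 ± 0.08 and -0.85 ± 0.08).

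On the side of esterification and efflux, 6 of 10 genes rose and none fell at 10 days, 4 rose and 1 fell at 30 days, and 4 rose and 2 fell at 60 days. By library totals 9 were higher and 0 lower, 8 and 0, and 7 and 1. Over all tested genes 33.3%, 33.7% and 29.9% were called higher with TMM factors, and 29.4%, 30.9% and 29.1% lower. By library totals 80.2%, 75.1% and 69.9% were called, of which 87.4%, 84.1% and 82.7% were higher. Abcg1 and Abca1, the cholesterol exporters, rose 7.91-fold and 3.90-fold at 10 days (log2 fold changes 2.98 ± 0.21 and 1.96 ± 0.23) and were still raised at 60 days (1.74 ± 0.21 and 1.18 ± 0.23). Apoe, which carries exported lipid, rose at all 3 times (1.30, 1.84 and 1.71). Soat1, which esterifies cholesterol for storage, rose at 10 days (1.16 ± 0.17, adjusted p 1.27e-05) and was not called at 30 and 60 days (0.05 and 0.14), where library totals gave calls of higher (0.55 and 0.54). Nr1h3, which encodes the sterol sensor LXR-alpha, was not called at 10 days (0.04, adjusted p 0.646, and 0.70 with a call of higher by library totals) and was lower at 60 days (-0.68 ± 0.08, and -0.27 by library totals). These comparisons against 0 days share the same 4 control libraries.

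**Figure D5:**
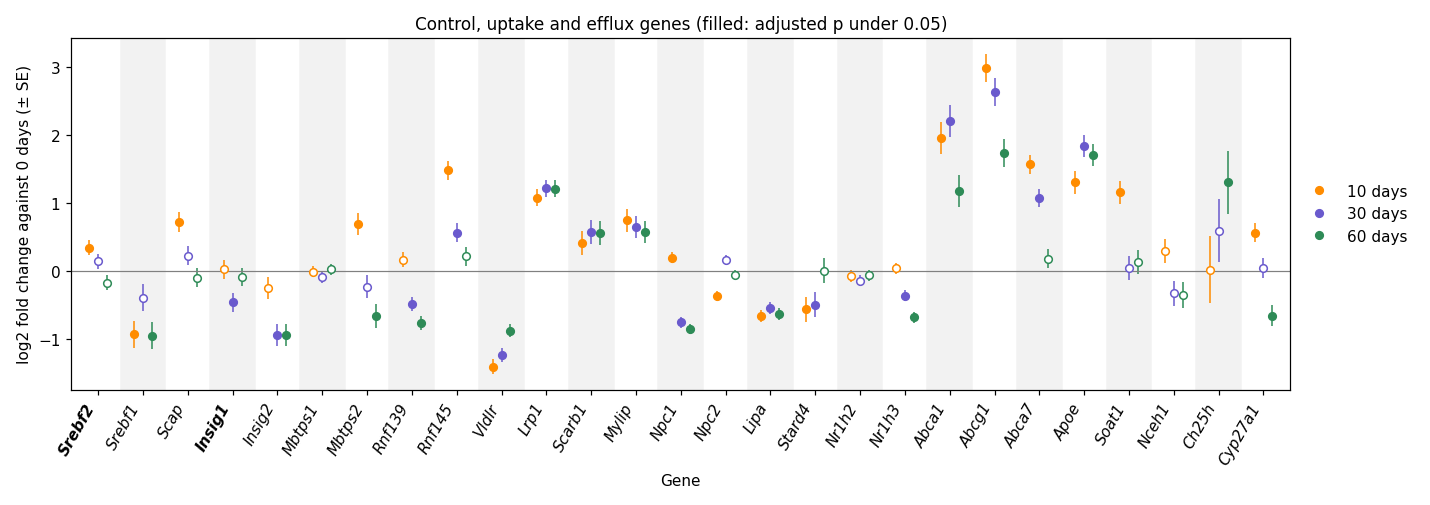
Log2 fold change (± SE) against 0 days for genes of SREBP control, lipoprotein uptake and cholesterol efflux, with Srebf2 and Insig1 in bold type and filled points where the adjusted p is under 0.05. Vldlr (-1.40 at 10 days) lies below 0 and Abca1 (1.96) and Abcg1 (2.98) above it.

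Markers of cell types also differed between the groups. The summed level of 7 muscle fibre markers was 201766 to 223838 CPM at 0 days, 62176 to 66025 at 10 days, 97865 to 137685 at 30 days and 116266 to 139143 at 60 days, and 6, 6 and 5 of the 7 were called lower. The myoglobin gene Mb went the other way and was called higher each time (log2 fold changes 0.50, 1.01 and 0.49). Of 8 macrophage markers 6, 8 and 8 were called higher, and their sum went from 32.5 to 49.1 CPM at 0 days to 101 to 137, 126 to 166 and 110 to 203 CPM. Of 8 adipocyte markers 2 were called lower at 10 and 30 days and 6 higher at 60 days, with sums of 690 to 879 CPM at 0 days, 411 to 551 at 10 days, 426 to 545 at 30 days and 642 to 924 at 60 days. These sums mainly follow Lpl and Fabp4, with mean counts of 10274 and 3716 per library against 758 for Cfd, the next. The median log2 fold change of the 8 adipocyte markers at 60 days was 1.61. Sums of 8 fibroblast markers were 495 to 1026 CPM at 0 days and between 977 and 3005 CPM later. Sums of 8 Schwann cell markers were 97.0 to 147 CPM at 0 days, 47.2 to 79.7 at 10 days, 96.6 to 143 at 30 days and 174 to 356 at 60 days, with 4 called lower and 1 higher at 10 days and 7 higher at 60 days. Sums of 8 endothelial markers were 337 to 385 CPM at 0 days, 185 to 266 at 10 days, 269 to 299 at 30 days and 296 to 439 at 60 days, with 7 called lower at 10 days. Some of the marker calls depended on the scaling. By library totals 0 endothelial markers were higher and 2 lower at 10 days, and 6 were higher at 60 days. Schwann cell markers were then 3 higher and 2 lower at 10 days, and fibre markers 1 higher and 3 lower at 60 days. Of adipocyte markers 1 was lower at 10 days and 7 were higher at 60 days. All 8 macrophage and all 8 fibroblast markers were called higher at each time. None of these markers was at 0 in any library. The part of these cell types in the levels of the cholesterol genes was not tested.

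The 8 genes were also set against their own mean profile, the mean over members of log2 CPM centred on each gene, with likeness taken as the root mean square difference over 16 libraries. Fdps lay nearest to it (0.12), followed by Hmgcs1 (0.18), Insig1 (0.21), Cyp51 (0.23), Srebf2 (0.24), Sqle (0.30), Idi1 (0.37) and Fdft1 (0.64). Among the 11658 tested genes ranked by this likeness Fdps was number 128 and Fdft1 number 8829. Among the nearest 8 outside the lists were Eif2b5, Ncoa4, Tnfaip1, Cnot7, Tgoln2, Rnf19a and Btbd1, at 0.077 to 0.090. All libraries share the same scaling, and the members themselves make up the profile.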

How the data were processed

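Polyadenylated RNA of 16 supraspinatus libraries was sequenced after TruSeq mRNA library preparation, per the labels' protocols. The authors deposited expected counts, raw fragments per gene and library that are not scaled for depth or length. The submitters' processing notes name bcl2fastq 1.8.4, FastQC, TopHat2 2.0.9, Bowtie2 2.1.0.0, Cufflinks, Cuffdiff 2.1.1 and the genome build rn5. Strandedness is not given in the sources used here. Of 17147 genes 233 hold a fractional value, none of them a member, and values were rounded.

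Groups came from the labelled time. The low-count filter (filterByExpr) kept 11658 genes. One edgeR quasi-likelihood model with TMM factors, robust estimation and no covariate took all 16 libraries, and 6 pairs of groups and a joint test were adjusted by the Benjamini-Hochberg method over all tested genes. SE is the log2 fold change divided by the square root of F. A count of 3, the floor of detection, was 0.0752 to 0.175 CPM, and floors cover counting error only. Replicates are named 1 to 4. No 2 libraries of a group agreed within sampling noise (chi-square per gene 13.3 to 102 over 24 pairs).

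The members, the gene lists and the motifs were chosen with earlier results of these data known. All members could be named, and any gene of the 6 other pathway lists, apart from some genes that are not reported here and were left out of the lists. The likeness rule took the 8 nearest tested genes outside the lists with a mean of at least 5 CPM, with a prior count of 2. Of the table's symbols 14500, with all 8 members among them, are in RefSeq (GRCr8), which was used for names, overlapping genes and promoters.

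Tested on simulated data for 10 against 0 days, 159 of 197 genes changed 2-fold were called and 11 unchanged ones, over 11527 genes. The simulation changed few genes, evenly up and down, from levels shared by all groups. In the data 62.7% of tested genes were called at 10 days. The simulation therefore does not test how calls depend on the scaling. The fits were repeated with DESeq2, limma-voom, RLE or upper-quartile factors, library totals, other filters (none, or a mean of at least 1 CPM), a stricter threshold (0.01), only the groups compared, a block for the replicate number, a covariate for the letter (L or R) in the titles, and each library left out in turn. The tools were edgeR 4.0.16, DESeq2 1.42.0 and limma 3.58.1 under R 4.3.3, with matplotlib 3.10.9 for figures.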

Additional observations from a re-analysis of the deposited data

Results flagged for a closer look

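In 2 cases a library stood apart from the other 3 of their group by Dixon's criterion, among 32 groups examined, of which chance marks about 1 in 20. Insig1 at 30 days was highest in replicate 4, at 29.0 CPM, and Sqle at 10 days was lowest in replicate 4, at 2.37 CPM.

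For 5 members the difference from 0 days itself differed between times, tested within the edgeR model. Of all tested genes 47.3% were called between 10 and 30 days, 22.6% between 30 and 60 days and 61.1% between 10 and 60 days. Cyp51 was lower at 30 than at 10 days (-0.55) and lower at 60 than at 10 days (-0.74). Fdft1 was higher at 60 than at 30 days (0.69) and than at 10 days (0.84). Idi1 was lower at 60 than at 30 days (-0.51) and than at 10 days (-0.74). Insig1 was lower at 30 than at 10 days (-0.48). Srebf2 was lower at 60 than at 30 days (-0.32) and than at 10 days (-0.51). Its call from 30 to 60 days (adjusted p 0.0490) was lost in 12 of 16 fits that left out 1 library.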

How the results depend on the processing

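Scaling by library totals alone turned the sign of several differences from 0 days, and the cause was not tested. At 10 days the log2 fold change then was 0.033 in Hmgcs1 (adjusted p 0.723), 0.36 in Fdps (adjusted p 8.93e-05), 0.62 in Cyp51, 0.23 in Mvk, 0.17 in Mvd, 0.36 in Nsdhl and 0.41 in Insig2. At 30 days it was 0.20 in Fdps, 0.038 in Insig1, 0.26 in Mvk, 0.35 in Pmvk, 0.33 in Mvd, 0.22 in Nsdhl and 0.14 in Nr1h3. At 60 days it was 0.34 in Idi1, 0.14 in Fdps, 0.32 in Insig1 (adjusted p 0.0426), 0.31 in Scap (not called) and 0.051 in Nsdhl, and from 10 to 60 days it was -0.23 in Fdps. The members called became 5 from 10 to 30 days (0 higher, 5 lower) and 7 from 10 to 60 days (1 higher, 6 lower). Of all tested genes 47.6% and 63.2% were then called in these 2 comparisons. Only 27.60% and 27.95% of those called genes were higher, so most calls over all genes were also lower. Against 0 days the share of all called genes that were higher went from 53.1%, 52.2% and 50.7% to 87.4%, 84.1% and 82.7% at 10, 30 and 60 days. With upper-quartile factors that share was 62.2% at 30 days and 63.6% at 60 days.

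Leaving out each library in turn gave 5 to 5 members called at 10 days, 6 to 7 at 30 days and 4 to 5 at 60 days, all against 0 days. It gave 2 to 3 from 10 to 30 days, 2 to 3 from 30 to 60 days, 4 to 5 from 10 to 60 days and 7 to 7 in the joint test. Of these values of members 735 kept their direction and their side of the threshold, 12 lost a call (all of Srebf2 from 30 to 60 days), 7 gained one and 14 that were not called changed sign. From 30 to 60 days, 2636 genes were called in all, 1530 in a fit of these groups alone and 1244 at an adjusted p under 0.01. Insig1 from 30 to 60 days (0.37, adjusted p 0.0572) was called with RLE factors (adjusted p 0.0449), upper-quartile factors (adjusted p 0.0453), DESeq2 (adjusted p 0.0313) and a mean of at least 1 CPM (adjusted p 0.0468).

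Suffixes of the column names served as a replicate block. On average libraries with the same number did not deviate together (mean correlation 0.0013, from -0.24 to 0.22, over 0.1 in 4 of 24 pairs). The mean over pairs with different numbers was -0.00012. Whether single pairs share more than a number was not tested. With the block 5, 6 and 4 members were called at 10, 30 and 60 days against 0 days, 2 from 10 to 30 days, 2 from 30 to 60 days (Srebf2 then had an adjusted p of 0.0751) and 4 from 10 to 60 days. Of all tested genes 62.1%, 64.1% and 58.0% were then called against 0 days. From 10 to 30, 30 to 60 and 10 to 60 days it was 46.3%, 21.9% and 60.3%. Depth limits Sqle most, with 36 to 129 fragments per library.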
